A study of Mus musculus with 2 samples.

Results

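The regions described here are 2819 stretches of open chromatin in juvenile mouse testis that were listed in both libraries of the study but carried a higher value in replicate 1. Each is a replicate 1 peak that overlaps a replicate 2 peak by at least 1 bp, has a value at least 1.5 times that of its replicate 2 partner, and has a mean value of at least 0.5 over both libraries. Of the 101172 replicate 1 peaks, 83530 had such a partner and 54179 of these reached the mean value, so the regions make up 5.20% of the shared peaks that could have been chosen. The opposite limit, at least 1.5 times as strong in replicate 2, was met by 2946 peaks, or 5.44%, and 48414 peaks lay between the limits. Another 939 shared peaks had the ratio but a mean value below 0.5 and were left out. The regions were chosen by the peak values of both libraries, so these values and ratios are given as a description and no test was made on them.

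The study mapped DNase I hypersensitive sites by DNase-seq, which sequences the ends left where the enzyme has cut accessible DNA. The tissue was whole testis of B6CASTF1/J males at 14 days of age, the F1 of a cross between the C57BL/6 background and a castaneus-derived strain. There is 1 group, with no treatment and no mutant allele named, and it has 2 libraries, numbered as biological replicates 1 and 2. The label of replicate 1 names 3 males, that of replicate 2 names a male without a count, and both carry the same donor label. Whether the libraries differ by animal, by cell makeup or by handling cannot be told apart from these labels. With 1 library on each side, no difference between the libraries has a replicate check. In whole tissue, fewer cells of a type and less open chromatin per cell cannot be told apart either. At this age the seminiferous tubules hold spermatogonia and spermatocytes that have entered meiosis, together with Sertoli cells, and lie among Leydig, peritubular myoid, vascular and stromal cells.

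The results below turn on CTCF sites and on CpG islands, both known from many tissues. CTCF is a zinc finger protein that binds a long, conserved consensus, marks boundaries between chromatin domains and, together with cohesin, holds the bases of chromatin loops. Its germline relative CTCFL binds much the same core consensus in male germ cells. CpG islands are stretches rich in CpG pairs that cover the promoters of broadly expressed and developmental genes and that are usually free of DNA methylation. A DNase footprint is a short stretch inside an open region that is cut less than its surroundings, as happens where a protein covers the DNA.

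The sequences of the strongest regions with a complete match to the 12-letter CTCF consensus are shown because, of the motifs searched, this consensus differed most in percentage points between the regions and other shared peaks. They were chosen after the values were seen. Each is 40 bases of the mm10 reference read along the consensus, with its letters in capitals. The replicate 1 and replicate 2 values of these peaks were 13.6 and 8.70 near Chd2, 12.9 and 8.12 at Lsm11, 9.92 and 6.30 at Dgkz, 7.84 and 5.23 at Acbd4, 7.58 and 4.96 at Nae1, and 7.04 and 4.24 at Vps37d.
Chd2, chr7:73618501-73618540, minus strand: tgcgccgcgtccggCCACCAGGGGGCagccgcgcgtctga
Lsm11, chr11:45945013-45945052, plus strand: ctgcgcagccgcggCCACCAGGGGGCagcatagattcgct
Dgkz, chr2:91963732-91963771, minus strand: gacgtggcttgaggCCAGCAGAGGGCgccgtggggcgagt
Acbd4, chr11:103102801-103102840, plus strand: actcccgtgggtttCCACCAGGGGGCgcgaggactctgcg
Nae1, chr8:104534647-104534686, plus strand: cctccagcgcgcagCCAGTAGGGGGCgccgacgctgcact
Vps37d, chr5:135078329-135078368, plus strand: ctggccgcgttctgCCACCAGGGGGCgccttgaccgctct

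Several of the regions with the highest ratios show the same consensus in a less complete form. Of the 10 highest ratios, 6 belong to peaks that meet 11 of the 12 letters. This is near the 58.0% of all regions that met at least 11, where 16.9% of peaks between the limits did. The best match of these 6 peaks is printed in the same way, with a letter that departs from the consensus in lower case. They lie near genes of unrelated function, among them Tgfb1, a growth factor, Afp, a foetal plasma protein, and Tex35, a testis-expressed gene.
Tgfb1, chr7:25700924-25700963, plus strand: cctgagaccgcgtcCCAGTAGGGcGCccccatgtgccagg
Thap1, chr8:26345248-26345287, plus strand: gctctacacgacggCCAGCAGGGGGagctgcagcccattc
P3h2, chr16:25967503-25967542, plus strand: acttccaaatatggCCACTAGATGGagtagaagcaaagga
Afp, chr5:90500914-90500953, minus strand: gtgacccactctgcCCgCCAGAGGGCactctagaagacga
Chn2, chr6:54253356-54253395, minus strand: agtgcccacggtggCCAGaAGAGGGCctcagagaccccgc
Tex35, chr1:157076430-157076469, minus strand: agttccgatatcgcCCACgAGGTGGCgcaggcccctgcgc

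The other sequence feature is CpG density at promoters. The central 150 bases of 3 of the strongest promoter regions are given on the plus strand of mm10, with every CpG pair in capitals. Erp29 encodes a chaperone of the endoplasmic reticulum, Rnf19b a ubiquitin ligase and Sppl2b a protease that cuts within membranes. Their windows hold 23, 19 and 22 CpG pairs.
Erp29, chr5:121452446-121452595: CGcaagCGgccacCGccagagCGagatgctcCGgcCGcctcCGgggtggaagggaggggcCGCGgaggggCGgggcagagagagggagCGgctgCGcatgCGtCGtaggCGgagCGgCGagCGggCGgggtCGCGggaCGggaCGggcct
Rnf19b, chr4:129057996-129058145: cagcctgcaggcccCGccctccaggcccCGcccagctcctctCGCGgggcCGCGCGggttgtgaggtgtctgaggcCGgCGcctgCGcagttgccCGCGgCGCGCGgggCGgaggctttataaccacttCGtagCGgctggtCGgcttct
Sppl2b, chr10:80855176-80855325: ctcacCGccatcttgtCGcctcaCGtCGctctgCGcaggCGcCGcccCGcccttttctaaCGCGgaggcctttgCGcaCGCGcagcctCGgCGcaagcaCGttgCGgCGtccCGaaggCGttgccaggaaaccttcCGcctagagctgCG

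The peak value is the authors' own signal. Values below 1 were whole multiples of a smallest step in each library, 0.00538 in replicate 1 and 0.00377 in replicate 2. The regions had a median value of 1.22 in replicate 1, with a range of 0.602 to 40.5, and of 0.732 in replicate 2, with a range of 0.291 to 26.5. The peaks between the limits had medians of 0.995 and 0.997 in replicates 1 and 2. The median of the regions thus lay above that of these peaks in replicate 1 and below it in replicate 2, which follows from the choice. Their median ratio was 1.61, and most lay close to the limit: 1287 regions (45.7%) had ratios of 1.5 to 1.6, 1136 of 1.6 to 1.8, 307 of 1.8 to 2, and 89 of at least 2. If each step is read as an independent count, the regions held medians of 226 and 194 steps in replicates 1 and 2, and the counting error of a single log2 ratio had a median of 0.14. The meaning of a step is not stated. Over all 54179 peaks the log2 ratio of replicate 1 over replicate 2 had a median of 0.01 and an SD of 0.36.

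The share of regions stronger in replicate 1 did not run with peak strength as that of the opposite set did. It was 4.54% in the weakest of 10 deciles of mean value, 6.98% in the seventh and 1.53% in the strongest. The peaks stronger in replicate 2 became rarer with strength, with 8.64% in the weakest decile, 4.86% in the seventh and 0.314% in the strongest. At high values the few peaks past either limit were thus mostly stronger in replicate 1.

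**Figure D1:**
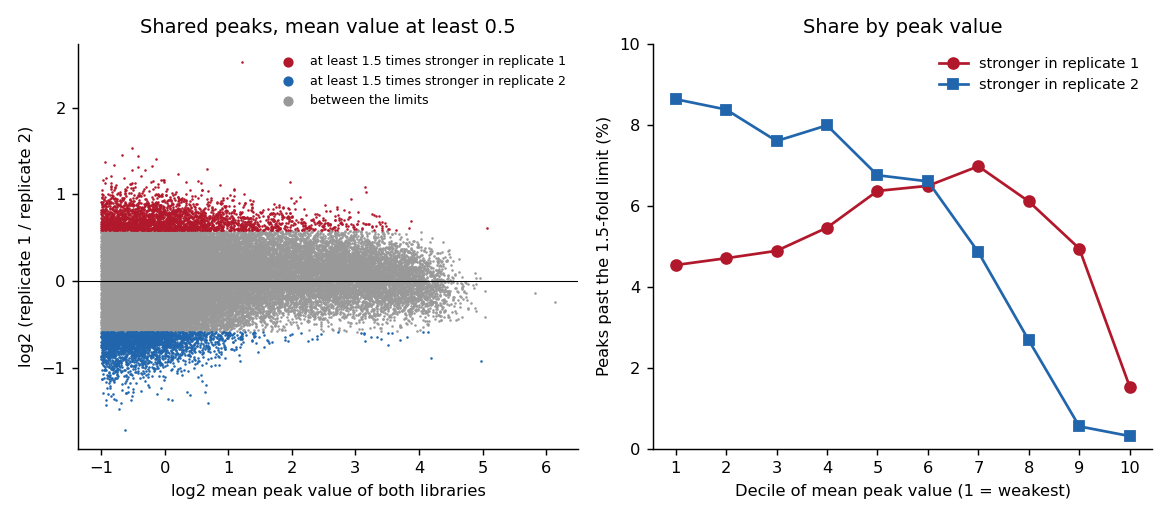
Left, each point is a shared peak, with the log2 of its mean value on the horizontal axis and the log2 ratio of replicate 1 over replicate 2 on the vertical axis. Right, the share of peaks past the 1.5-fold limit in each direction per decile of mean value, where peaks stronger in replicate 1 reach 6.98% in the seventh decile and those stronger in replicate 2 decline to 0.314% in the strongest.

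At the limit itself the values on both sides were close. The 5 nearest regions inside had their nearest start at Sorcs3, at 1904 bp, Gdpd5, Accsl, at 1844 bp, Fads3 and Ccdc40, with the others at promoters. Sorcs3 had 1.06 in replicate 1 and 0.710 in replicate 2, Gdpd5 11.7 and 7.80, Accsl 0.957 and 0.638, Fads3 1.81 and 1.204, and Ccdc40 1.27 and 0.849. The 5 nearest outside had theirs at Cgnl1 and Traf1, both promoters, at Creg2, 36363 bp away, at Larp1, 74583 bp away, and at Tox2, in an intron. Cgnl1 had 1.17 in replicate 1 and 0.781 in replicate 2, Creg2 0.640 and 0.427, Traf1 0.747 and 0.498, Larp1 2.46 and 1.64, and Tox2 0.855 and 0.570. On both sides the nearest peaks include promoters with at least 10 CpG pairs and peaks with 11 or 12 letters of the CTCF consensus, so the limit cuts through a continuous range.

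Most regions were matched with 1 replicate 2 peak of similar extent. The median width was 200 bp for the regions in both libraries, against 210 and 220 bp for the peaks between the limits in replicates 1 and 2. There were 2614 regions that shared at least 50% of both peaks and 205 that shared less, 34 that overlapped more than 1 replicate 2 peak, and 37 whose partner also served another shared peak. The highest ratio of all, 5.74, came from a peak between genes near Gm14496 on chromosome 2, with 3.97 in replicate 1 and 0.691 in replicate 2. That peak shared only 20 bp with its partner, which ran on from its edge, so the ratio compares largely different bases. Of the other 9 highest ratios, the intronic Tgfb1 peak shared 23 bp with its partner, at chr7:25700841-25700887, and its printed CTCF match lies outside that partner. The Trpm2 and Chn2 peaks, each of 200 bp, shared 86 and 89 bp, and the remaining 6 shared 125 to 200 bp.

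The regions lay away from promoters more often than other shared peaks did. A promoter was counted where the peak midpoint lay within 1000 bp of an annotated protein-coding transcript start in GENCODE M21 on mm10. By this measure 746 regions (26.5%, 95% Wilson interval 24.9 to 28.1) were at promoters, against 12.4% of the peaks stronger in replicate 2 and 43.3% of the peaks between the limits. Weighting the peaks between the limits to the mean values of the regions left them at 38.8%. Another 142 regions (5.04%) were exonic, 719 (25.5%) intronic and 1212 (43.0%) between genes, where the peaks between the limits of like value had 4.39%, 24.9% and 31.9%. Intervals cover counting error only, since peaks of the same libraries are not replicates.

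Read the other way, 3.38% of all shared peaks at promoters were stronger in replicate 1, against 6.44% in exons, 5.49% in introns and 7.21% between genes. By distance the share was lowest within 1 kb of a start, at 3.50% for 0 to 250 bp and 3.09% for 250 to 1000 bp. It was highest at 20 to 50 kb, at 7.34%, and came to 5.76% beyond 100 kb. The median distance to the nearest start was 7870 bp for the regions, 13105.5 bp for peaks stronger in replicate 2 and 2277.5 bp for peaks between the limits. The autosomes ran from 4.26% on chromosome 14 to 5.91% on chromosome 5. On the X chromosome 35 of 1016 shared peaks were stronger in replicate 1, a share of 3.44% with an interval of 2.49 to 4.75, and on the Y chromosome 2 of 28.

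The promoters among the regions were of the CpG-rich kind. Their central 150 bases held 16.8 CpG pairs on average (SD 8.24), against 12.3 (SD 6.42) in promoter peaks between the limits and 12.01 in those of like value. Of the promoter regions 66.5% held at least 15 CpG pairs, against 6.58% of promoter peaks stronger in replicate 2 and 36.7% of those between the limits. Mean GC content was 71.2% in the promoter regions, 55.5% in promoter peaks stronger in replicate 2 and 65.2% in those between the limits. Among all promoter peaks the share stronger in replicate 1 was 3.88% with 0 to 2 CpG pairs, 1.13% with 6 to 9 and 6.03% with 15 or more. Outside promoters it moved less, with 5.91% at 0 to 2 pairs and 8.13% at 15 or more. The high end of CpG content was thus common to the promoter regions, and few promoter regions had middling content.

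**Figure D2:**
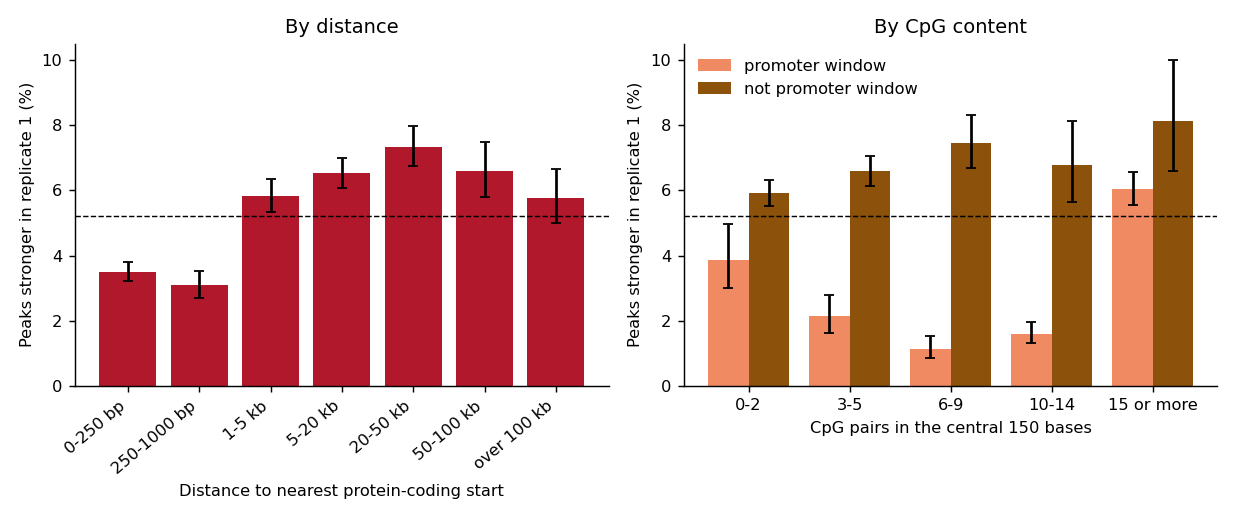
The share of shared peaks stronger in replicate 1 by distance to the nearest protein-coding transcript start (left) and by the number of CpG pairs in the central 150 bases, at promoters and elsewhere (right), with 95% Wilson intervals. The dashed line is the share over all shared peaks, 5.20%, and promoter peaks with 6 to 9 CpG pairs lie lowest, at 1.13%.

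The CTCF consensus was the most frequent of the searched motifs in the regions. Its 12 letters, some of which allow more than 1 base, were compared with every place on both strands of the central 150 bases. This longer consensus was added after the short motifs had been counted. A complete match was found in 714 regions (25.3%, interval 23.8 to 26.97), against 2 of 2946 peaks stronger in replicate 2 (0.0679%) and 2833 peaks between the limits (5.85%, or 6.51% at like value). Allowing 1 letter to differ, a match was found in 1636 regions (58.0%, interval 56.2 to 59.8), against 60 peaks stronger in replicate 2 (2.04%) and 8199 between the limits (16.9%, or 18.5% at like value). Over all 54179 peaks the share was 18.3%. The windows of equal length lying 1000 bp away gave 2.63% beside the regions, 1.799% beside the peaks stronger in replicate 2 and 2.06% beside those between the limits. The peaks stronger in replicate 2 thus carried the consensus about as often as the sequence beside them, and the regions carried it more often than either set.

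Outside promoters the consensus was found in most regions. There 1468 of 2073 regions (70.8%, interval 68.8 to 72.7) were within 1 letter of it, against 1.94% of peaks stronger in replicate 2 and 24.95% of those between the limits. At promoters it was found in 168 of 746 regions (22.5%, interval 19.7 to 25.7), against 2.74% and 6.44%. The ratio rose with each further letter met. Its median on the log2 scale was -0.15 in peaks whose best place met 8 letters, -0.06 at 9, 0.05 at 10, 0.28 at 11 and 0.36 at 12. The share of peaks stronger in replicate 1 was 1.19% at 8 letters, 2.13% at 9, 5.52% at 10, 14.5% at 11 and 20.1% at 12. Among complete matches 2 of 3549 peaks were stronger in replicate 2 by the same limit.

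**Figure D3:**
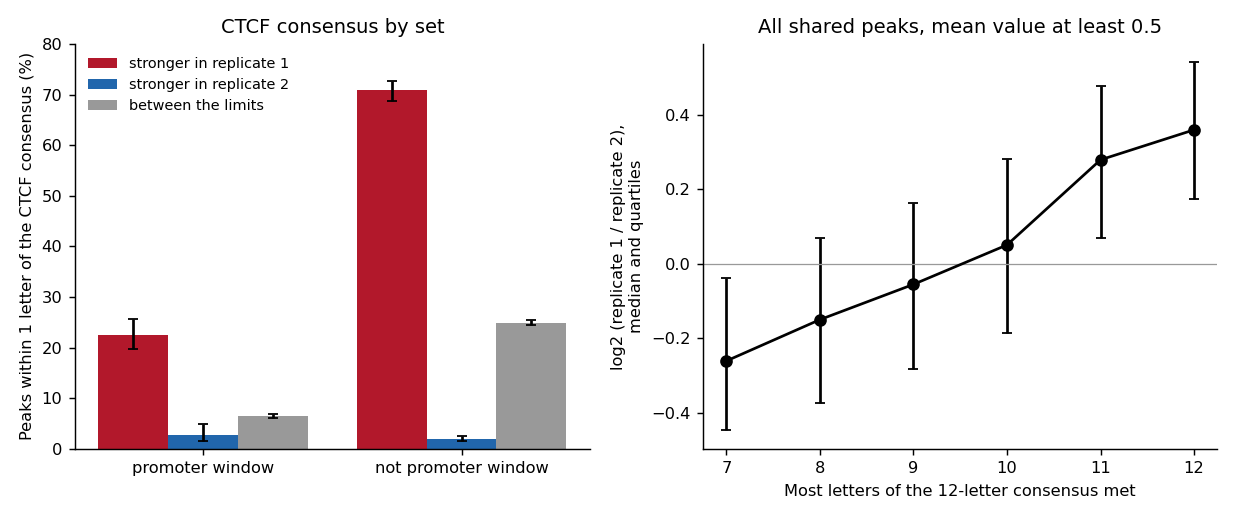
Left, the share of peaks within 1 letter of the CTCF consensus with 95% Wilson intervals, at promoters and elsewhere, for peaks stronger in replicate 1, peaks stronger in replicate 2 and peaks between the limits. Right, the log2 ratio of replicate 1 over replicate 2 (median and quartiles) of all shared peaks by the most consensus letters met, with medians of -0.15 at 8 letters and 0.36 at 12.

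The 1.5-fold limit did not mark a break in this respect. Within 1 letter of the consensus were 60.7% of regions with a ratio of at least 2, 62.9% at 1.8 to 2, 60.9% at 1.6 to 1.8 and 54.2% at 1.5 to 1.6. Just below the limit the share was 48.2% at ratios of 1.4 to 1.5, and it was 12.03% at 0.9 to 1.1. The share of promoter peaks with at least 15 CpG pairs behaved alike, with 67.1% at ratios of 1.5 to 1.6, 65.4% at 1.4 to 1.5 and 32.2% at 0.9 to 1.1.

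Base composition moved with the ratio too, so the consensus was set against it. Among peaks without the near match, the median log2 ratio outside promoters was -0.33 at a GC content below 45%, -0.22 at 50 to 55%, -0.06 at 60 to 65% and 0.19 at 70% or more. Among peaks with the near match it was 0.32, 0.32, 0.34 and 0.46 in the same classes. The share stronger in replicate 1 outside promoters was 17.9% with the near match and 2.25% without it below 45% GC, and 18.3% and 2.23% at 60 to 65%. At promoters of at least 70% GC it was 17.6% with the near match and 6.29% without. The median of peaks with the near match was above 0 in each GC class, and that of the remaining peaks was higher in the classes of higher GC content. The part of base composition in the ratios was not tested beyond these classes.

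Put together, these features divide the regions into a few groups. Peaks within 1 letter of the consensus and outside promoters gave 1468 regions (52.1% of all), and those at promoters 168 (5.96%). Promoter peaks without it but with at least 15 CpG pairs gave 436 (15.5%) out of 7878. That is a share of 5.53%, with an interval of 5.05 to 6.06 that takes in the 5.20% over all shared peaks. Only 0.267% of these 7878 peaks were stronger in replicate 2. Promoter peaks without it and with fewer pairs gave 142 (5.04%) out of 12673, a share of 1.12%. Without the near match, CpG-rich promoters thus stood above other promoters but near the share over all peaks. Peaks outside promoters without the near match gave 45 regions with at least 15 CpG pairs and 560 with fewer (19.9% of all). The last group held 2525 of the 2946 peaks stronger in replicate 2, and in it 2.45% of peaks were stronger in replicate 1 and 11.1% in replicate 2.

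Most motifs of other factors were rarer in the regions than between the limits, or differed little. Shorter strings were searched on both strands, 22 in all. CTCF's core strings CAGGGGGC and CAGATGGC, some of which lie inside the longer consensus, were in 451 regions (16.0%), 1.66% of peaks stronger in replicate 2 and 5.35% of those between the limits. Over all shared peaks 5.70% had them. The string TACATTGT of DMRT factors, which in the testis include DMRT1 of Sertoli cells and spermatogonia, was in 6 regions (0.213%), against 5.40% of peaks stronger in replicate 2 and 1.12% of those between the limits. AGATAAG, bound by GATA factors such as GATA4 of the somatic cells, was in 18 (0.639%), against 4.99% and 1.599%. CAAGGTCA, bound by NR5A1, the steroidogenic factor of Sertoli and Leydig cells, was in 16 (0.568%), against 4.38% and 2.00%. These 3 strings were thus rarest in the regions and most frequent in peaks stronger in replicate 2. This order was not particular to them. TGANTCA of AP-1 factors was in 2.45% of the regions (interval 1.94 to 3.09), against 4.99% and 3.59%. The FOX, TEAD, T-box and RFX strings had the order too, with region intervals that take in the share between the limits. Of other factors with a role in Sertoli cells, the SOX string had this order and that of EGR and WT1 did not. GCGTGGGNG of EGR factors and WT1 was in 0.887% of the regions, 1.15% of peaks stronger in replicate 2 and 1.605% of peaks between the limits. ACAATGG of SOX factors was in 1.0997% of the regions, with an interval of 0.776 to 1.56 that takes in the 1.45% between the limits, and in 3.16% of peaks stronger in replicate 2.

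Motifs of promoter factors ran in both directions. AGCCAAT, the CCAAT box of NFY, was in 61 regions (2.16%) and 4.67% of peaks between the limits, and CCGGAAGT of ETS factors in 16 (0.568%) and 2.33%. The GC box GGGCGGG of SP and KLF factors was in 409 regions (14.5%), against 3.46% of peaks stronger in replicate 2 and 18.4% of peaks between the limits. At promoters alone the order of the GC box was the other way, with 42.2% of the regions (interval 38.7 to 45.8), 8.22% of peaks stronger in replicate 2 and 33.1% of peaks between the limits. GCGCATGCG, bound by NRF1, a regulator of genes for mitochondrial function, was in 3.89% of promoter regions (interval 2.72 to 5.53) and 2.26% of promoter peaks between the limits. Outside promoters the order was the other way, with 0.338% (interval 0.164 to 0.695) and 0.933%. Over all locations it was in 1.28% of the regions, with an interval of 0.924 to 1.76 that takes in the 1.51% between the limits. The NFY and ETS strings were rarer in the regions at promoters as well, in 3.35% and 1.74%, against 6.59% and 4.38% between the limits. GGACAGCGC, part of the element of the repressor REST, was in 19 regions (0.674%), 2 peaks stronger in replicate 2 (0.0679%) and 0.436% of those between the limits. The interval of the regions, 0.432 to 1.05, takes in the share between the limits. AACTGNC of MYB factors, which include the meiotic regulator MYBL1, was in 7.52% of regions, 7.43% of peaks stronger in replicate 2 and 7.06% of the rest. Ranked by the median log2 ratio of the peaks that carry them, the short CTCF strings stood at 0.28 and REST at 0.24, with NR5A at -0.23, GATA at -0.27 and DMRT at -0.37.

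**Figure D4:**
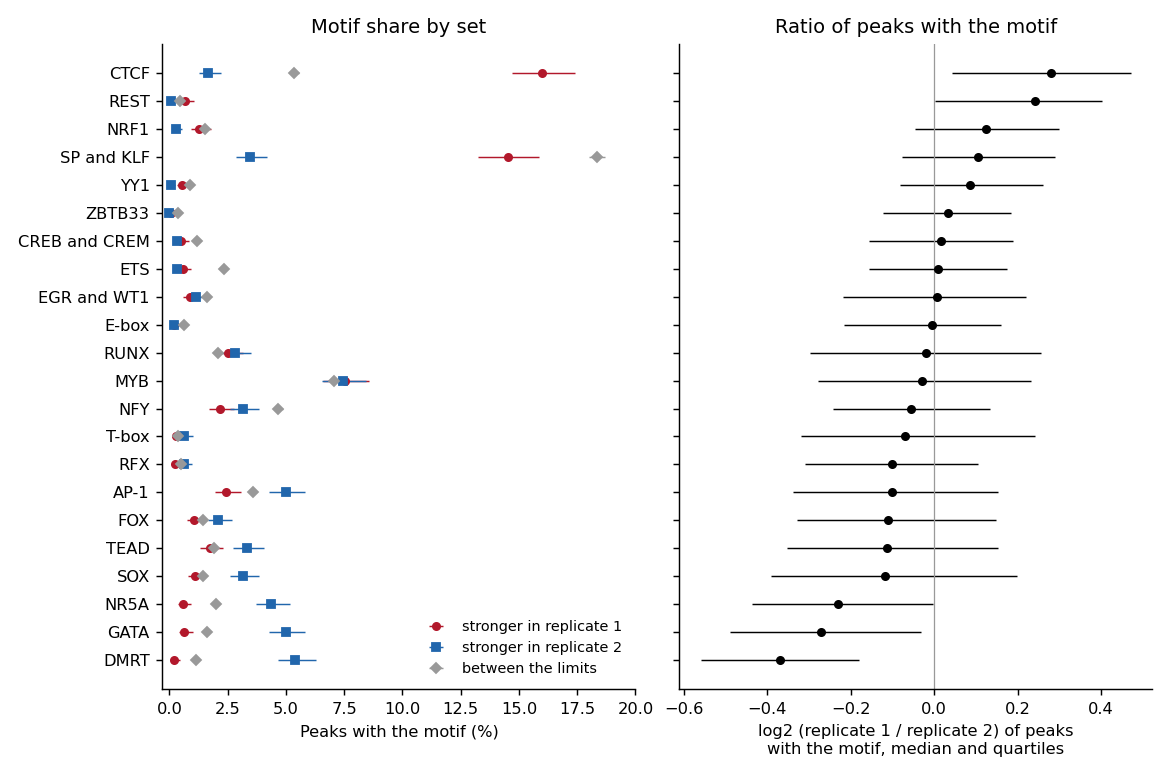
Left, the share of peaks with each of 22 short motifs in the central 150 bases (95% Wilson intervals) for peaks stronger in replicate 1, peaks stronger in replicate 2 and peaks between the limits. Right, the log2 ratio of replicate 1 over replicate 2 (median and quartiles) of all shared peaks that carry the motif, from CTCF at 0.28 to DMRT at -0.37.

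Footprints were frequent in the regions and covered more of them in replicate 1. A footprint in both libraries was found in 2754 regions (97.7%, interval 97.1 to 98.2), against 86.7% of peaks stronger in replicate 2 and 92.7% of those between the limits (92.2% at like value). The regions averaged 3.47 footprints in replicate 1 and 3.19 in replicate 2, where peaks between the limits of like value averaged 3.14 and 3.47. Footprints covered on average 28.4% of a region in replicate 1 and 24.5% in replicate 2, against 18.5% and 21.2% of peaks of like value. In 41.2% of regions replicate 1 listed more footprints, in 30.9% both listed the same number and in 27.9% replicate 2 listed more. For peaks between the limits these shares were 29.7%, 27.1% and 43.1%. Footprints come from the same reads as the peak values, so the lead of replicate 1 is not independent of how the regions were chosen. In replicate 2 the coverage of the regions also stood above that of peaks of like value. Within 1 letter of the CTCF consensus it did not, at 25.1% of a region in replicate 2 against 26.5% of peaks between the limits (26.3% at like value).

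Most footprints of the regions overlapped a footprint of the other library. Replicate 1 listed 9781 of them and replicate 2 listed 9003, and 66.6% and 76.3% were touched by a footprint of the other library. The corresponding shares between the limits were 68.8% and 61.7%. The share that would touch by chance was not measured. The regions with the most footprints were the promoters of Cdk14, a cyclin-dependent kinase gene, with 14 in each library, Zfyve9, a TGF-beta receptor adaptor gene, with 14 in replicate 1 and 13 in replicate 2, and Ugcg, a glucosylceramide synthase gene, with 12 and 11.

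The CTCF consensus lay under a footprint in nearly every region that had it. A complete match was touched in 707 of 714 regions (99.02%) in replicate 1 and 703 (98.5%) in replicate 2, against 98.6% and 98.5% of complete matches between the limits. For matches with 11 letters the shares were 98.6% and 97.1% in 922 regions, 29.3% and 50% in 58 peaks stronger in replicate 2, and 88.3% and 89.4% between the limits. The near matches in peaks stronger in replicate 2 were therefore covered less often. The matches sat near the peak midpoint, at a median distance of 8 bases in the regions, 23.5 in peaks stronger in replicate 2 and 11 between the limits. The footprint over a complete match had a median width of 29 bases in replicate 1 and 27 in replicate 2 in the regions, and of 28 in both libraries between the limits.

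A smaller rise in footprint cover lay on the side where the consensus starts. At 20.5 bases before the centre of the consensus, 53.1% of the regions with a complete match had a footprint in replicate 1 and 44.1% in replicate 2, against 40.9% and 40.1% between the limits. Nearer, at 12.5 bases before the centre, 36.4% of these regions still had one in replicate 1 and 35.4% in replicate 2. Whether these footprints were separate from the one over the consensus was not counted. Over the consensus itself, 0.5 bases from its centre, the shares were 98.5% and 96.2% in the regions and 97.2% and 96.9% between the limits. In both sets the footprint over the consensus was thus in place in both libraries. The libraries stood furthest apart on its other side in the regions. At 15.5 bases after the centre, 67.2% of the regions had a footprint in replicate 1 and 49.6% in replicate 2, against 58.6% and 53.3% between the limits. These footprints come from the reads behind the values that chose the regions.

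**Figure D5:**
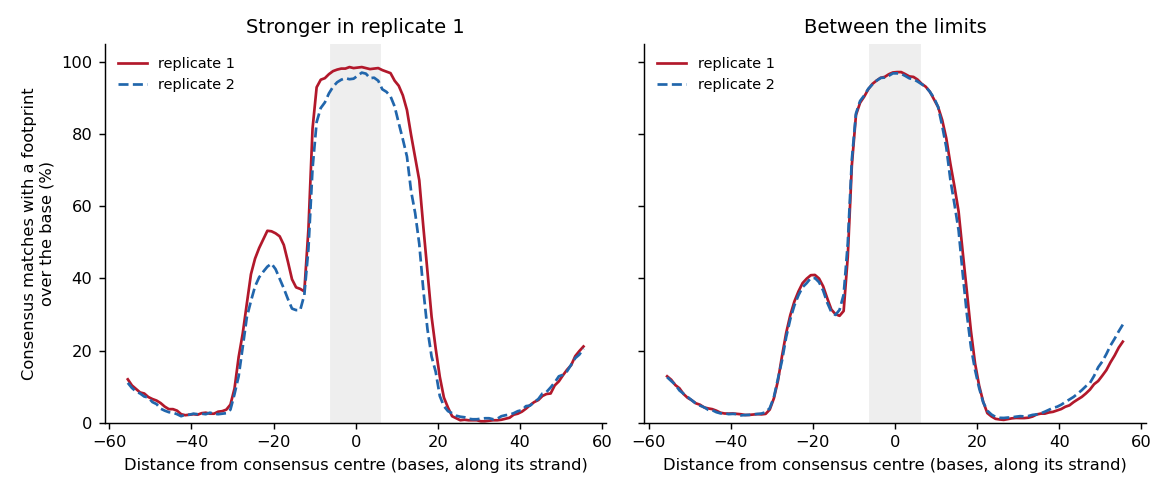
Share of complete CTCF consensus matches with a footprint over each base, by distance from the centre of the consensus along its strand, in replicates 1 and 2, for peaks stronger in replicate 1 (left) and peaks between the limits (right). The shaded band is the 12-letter consensus, and the smaller rise before it reaches 53.1% in replicate 1 and 44.1% in replicate 2 at -20.5 bases in the peaks stronger in replicate 1.

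The regions were found less often in the shorter peak list of replicate 2 than in that of replicate 1. In replicate 1, 98.8% of the regions overlapped a peak of the shorter list, against 89.6% of peaks between the limits. In replicate 2, 79.1% of their partner peaks did, against 92.0%. The bases of a region with a false discovery rate of the cut rate below 0.001 averaged 194 in replicate 1 and 144 in replicate 2. Between the limits they averaged 197 and 200. These calls come from the same reads as the values that chose the regions. The lower figures of the regions in replicate 2 are thus not independent of that choice.

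Along the chromosomes the regions were mostly scattered, with a modest tendency to be neighbours. The nearest other shared peak was also stronger in replicate 1 for 200 regions (7.09%, interval 6.20 to 8.10), for 4.34% of peaks stronger in replicate 2 and for 4.95% of peaks between the limits (5.08% at like value). It was stronger in replicate 2 for 4.82% of the regions, near the 4.73% of peaks between the limits. Within 1 letter of the CTCF consensus, 7.52% of regions had a neighbour stronger in replicate 1 (interval 6.34 to 8.90). Between the limits 6.71% of such peaks did, which lies inside that interval. Outside promoters the shares were 7.38% of regions and 5.55% of peaks between the limits. By nearest start the regions belonged to 2425 genes, of which 2102 had 1 region, 261 had 2, 53 had 3 and 9 had 4. The genes with 4 were Abr, Dhx35, Eml1, Fbln2, Mdga1, Nfkbia, Rplp1, Smad2 and Trim27, which share no family. They differed in how many shared peaks they had, from 6 for Fbln2 to 19 for Abr.

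Of the 10 strongest regions 8 were at promoters. The highest value, 40.5 in replicate 1 and 26.5 in replicate 2, belonged to chr17:39846781-39846900, which lies within the annotated rRNA gene CT010467.1. The nearest protein-coding start there, that of Esp38, is 103679 bp away. Ribosomal RNA genes exist in many copies, so reads from other copies may be counted there. Next came the promoter of Wwox, a tumour suppressor gene that spans a fragile site, with 18.2 in replicate 1 and 11.2 in replicate 2. The promoter of Coro1c, a gene for an actin-binding coronin, had 17.3 and 11.3. That of Erp29 had 14.9 and 9.95, and that of the RNA helicase gene Ddx59 had 13.9 and 9.20. Rnf19b had 13.8 and 9.06, Sppl2b 13.5 and 8.51, and Opa1, for a GTPase of mitochondrial fusion, 13.2 and 8.24. The splicing factor gene Srsf2 had 12.9 and 8.47. Some of these peaks also overlapped other annotated protein-coding genes, Tmem116 at Erp29, Lsm7 at Sppl2b, and Mettl23 and Mfsd11 at Srsf2. The 8 promoters held 13 to 23 CpG pairs in their central 150 bases. The remaining peak of the 10, 76701 bp from the start of the chromatin remodeller gene Chd2, held the complete CTCF consensus shown above.

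The regions with the highest ratios were mostly weak peaks outside promoters. Apart from the pair near Gm14496, ratios of 2.45 to 2.91 were found at 9 peaks. Gpr137b had 1.04 in replicate 1 and 0.359 in replicate 2, Trpm2, a cation channel gene, 0.919 and 0.336 in an intron, and Tgfb1 1.097 and 0.404, also in an intron and on the short overlap named above. Thap1 had 1.32 and 0.494 at 186478 bp from its start, and Agap1 0.753 and 0.291 at 110075 bp. P3h2, a gene for a collagen prolyl hydroxylase, had 0.823 and 0.325, Afp 1.24 and 0.494 at 610 bp from its start, Chn2 1.06 and 0.427, and Tex35 2.26 and 0.921. Of these 9 peaks only that of Agap1 met fewer than 10 letters of the CTCF consensus. Their replicate 2 values were 77 to 244 steps, where the median over all regions was 194.

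The marker genes of testis cell types had few of the regions. Genes were taken from lists of cell type markers, and each shared peak was given to the nearest protein-coding start, however far away. Of the matched markers, 24 of 25 for spermatogonia, 30 of 32 for meiotic prophase and 27 of 28 for Sertoli cells were nearest to at least 1 shared peak, against 3 of 10 for epididymis and 4 of 11 for erythroid cells. Over the 10 lists of germline, somatic and blood cells, 27 of 731 peaks (3.69%) were stronger in replicate 1, where 5.20% of all shared peaks were. Of these 27 peaks 15 were within 1 letter of the CTCF consensus and 6 were at promoters. In the same lists 52 peaks (7.11%) were stronger in replicate 2, where 5.44% of all were.

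Among germline genes the counts were small. In the spermatogonial list 7 of 158 peaks (4.43%) were stronger in replicate 1 and 15 (9.49%) in replicate 2. The 7 include the promoter of Foxo1, a transcription factor needed to keep spermatogonial stem cells, with 5.58 in replicate 1 and 3.64 in replicate 2, and that of Bcl6b, another stem cell regulator, with 2.81 and 1.86. A peak 53881 bp from the start of Dmrtb1, a regulator of the switch from mitosis to meiosis, had 2.42 and 1.46 and the complete CTCF consensus. In the list of meiotic prophase, of which 32 of 34 symbols were matched, 3 of 53 peaks (5.66%) were stronger in replicate 1, and 0 were stronger in replicate 2. They were the promoter of Mei1, a meiotic recombination gene, with 1.61 and 0.891, and peaks between genes near Hfm1, with 1.65 and 1.09, and Rec114, with 0.710 and 0.411. Pachytene genes gave 2 of 33 peaks, 14873 bp from the start of Tcfl5, with 0.973 and 0.638, and 24790 bp from that of Ccna1, with 0.968 and 0.638, and none was stronger in replicate 2. Spermatid genes gave 0 of 39, which allows a share of up to 7.69% taken as 3 counts, and 2 peaks were stronger in replicate 2.

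Among somatic cells the Sertoli list gave 2 of 167 peaks (1.198%), against 18 stronger in replicate 2 (10.8%). They lay 29597 bp from the start of Dmrt1, with 0.651 in replicate 1 and 0.366 in replicate 2, and in an exon of Inhbb, an inhibin subunit gene, with 0.613 and 0.389. Dmrt1 is in the spermatogonial list too, so its peak is counted in both lists. Leydig cell genes gave 4 of 79, all within 1 letter of the CTCF consensus, among them peaks near Scarb1, a lipoprotein receptor gene, with 1.76 and 1.15, Cyp11a1, for the enzyme that starts steroid synthesis, with 1.41 and 0.914, and Hsd17b3, for the last step to testosterone, with 0.898 and 0.555. Peritubular myoid genes gave 2 of 66, the promoter of Tpm2, a tropomyosin gene, with 3.25 and 2.11, and an intron of Synpo2, with 0.699 and 0.457. Stromal genes gave 4 of 72, among them peaks near Dcn, at 166458 bp, with 4.56 and 2.73, and Igf1, with 1.17 and 0.649, and at the promoter of Gli1, a hedgehog target gene, with 0.989 and 0.612. Endothelial genes gave 2 of 57, near Cdh5, with 2.33 and 1.32, and at the promoter of Flt1, with 0.763 and 0.494. Leukocyte genes gave 2 of 20, near C1qa, with 1.15 and 0.672, and in an intron of Mrc1, with 1.17 and 0.642. Stronger in replicate 2 were 7 peaks of the Leydig list (8.86%), 4 of the myoid (6.06%), 0 of the stromal, 6 of the endothelial (10.53%) and 1 of the leukocyte list (5%). By share, 5.06% of Leydig, 3.03% of myoid, 5.56% of stromal, 3.51% of endothelial and 10% of leukocyte peaks were stronger in replicate 1. Over all shared peaks 5.20% were, and 5.44% were stronger in replicate 2. More peaks were stronger in replicate 2 in the Sertoli, Leydig, myoid and endothelial lists, and each of these counts of regions is 4 or fewer. Most peaks of those lists lay outside promoters. There, 9.11% of all intronic peaks and 7.71% of those between genes were stronger in replicate 2. Whether the lists differ from such peaks was not tested.

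Housekeeping genes gave 0 of 74 peaks, which allows a share of up to 4.05% taken as 3 counts, and erythroid and epididymal genes gave none of their 7 and 4. Among gene families, peaks nearest to genes of ribosomal proteins gave 21 of 270 (7.78%, interval 5.14 to 11.6). Of these 21 peaks, which belonged to 14 genes, 16 were within 1 letter of the CTCF consensus and 3 were at promoters. Zinc finger genes with Zfp symbols gave 40 of 1119 (3.57%), histone cluster genes 7 of 124 (5.65%), Hox genes 3 of 53 (5.66%), and olfactory and vomeronasal receptor genes 5 of 98 (5.10%). The interval of the ribosomal protein genes takes in the 5.20% over all shared peaks, and that of the Zfp genes, 2.64 to 4.83, does not. The histone, Hox and receptor shares lay within 0.5 percentage points of the 5.20%.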

How the data were processed

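Per library the authors deposited, on mm10 per the labels, a longer and a shorter peak list, footprints and a false discovery rate track of the cut rate. For the aligner and callers, no name or version is given in the sources used here. The peak value is a signal column set by the authors. In both libraries 100% of values below 1 were whole multiples of 1 step, within 0.05 steps. The step was fitted on the same values, and larger values were not checked. The authors' deposited footprints carry a p-value of 0.01 throughout, so only positions were used. The track holds q-values deposited by the authors only below 0.05.

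From these, replicate 1 peaks of the longer lists were paired with the highest replicate 2 peak sharing at least 1 bp, and ratios were taken of the values as deposited. Location used GENCODE M21 on GRCm38.p6, the same build, with a promoter window of 1000 bp on each side. GC, CpG and motifs were read from the central 150 bases of the reference, so castaneus alleles were not seen. Like-value shares weight peaks between the limits to the regions' deciles of mean value. Wilson intervals are at 95%. Peaks were named by rule: the 10 highest by mean value and by ratio, the 3 with most footprints, up to 3 per list, and the 5 on each side of the limit. The genes with 4 regions and the printed CTCF sites and CpG-rich windows were chosen after their values were seen. The members and lists were chosen with earlier results of these data known. The code was tested on simulated peaks. Tools were Python 3.11.15, numpy 2.4.6, pandas 2.3.3 and scipy 1.17.1. Depth in reads is unknown.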

Additional observations from a re-analysis of the deposited data

How the results depend on the processing

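No paired analysis was possible because there is 1 group. A ratio limit of 2 left 89 regions in place of 2819, with 19.1% at promoters, a median GC content of 53.3% in place of 56%, 60.7% within 1 letter of the CTCF consensus, and 0 with a neighbour of the same kind, which allows up to 3.37% taken as 3 counts, against 0.143% of other peaks. A mean value of at least 1 left 1357, with 38.2% at promoters, a median GC content of 60%, footprints in both libraries in 98.97% and the CTCF consensus in 54.0%. Of other changes that moved a share beyond its interval, an overlap of at least 50% of both peaks gave footprints in 98.6%, and the shorter lists gave 29.6% at promoters and a GC content of 56.7%. Promoter windows of 500 and 2500 bp gave 22.6% and 34.1%, GC over the whole peak came to 55%, and all 12 CTCF letters were met in 25.3%. A footprint in 1 given library was found in 98.1% (leaving out replicate 1) to 98.9% (leaving out replicate 2). In each of these settings but the neighbours at a ratio of 2, the share stood on the same side of the peaks between the limits as in the main values. Taking the mean of overlapping replicate 2 peaks and centring the ratios moved no share beyond its interval. The CTCF alternatives were chosen after seeing the data. Weak peaks hold the fewest steps, which limits their ratios most.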
